A study of Mus musculus with 6 samples.

Results

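The genes described here make and regulate cholesterol and fatty acids: 33 genes of sterol synthesis and of the SREBP system, taken by name from the 54532 identifiers of the count table and ordered along the pathway. All 33 were found and all 33 had enough counts to be tested, among 13454 tested genes. Messenger RNA of cultured mouse peritoneal macrophages, the phagocytes of the abdominal cavity, was sequenced from total RNA in 3 libraries labelled as the negative control genotype and 3 labelled Rfx1 overexpression, Rfx1 being a DNA-binding protein of the regulatory factor X family. By its title the study looked at how RFX1 affects gene expression in these cells. Both groups were kept in the same serum-containing medium with antibiotics. The labels give no strain, age, time point, vector or method of overexpression, nor whether the 3 libraries of a label are different animals or different dishes. The p-values below therefore cover no more than the spread among these 6 libraries.

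Cholesterol is built from acetyl-CoA. Enzymes of the mevalonate pathway first make isoprene units, which are joined to squalene, closed into lanosterol and trimmed to cholesterol. SREBP transcription factors switch on these genes: when membrane sterol is low, the escort protein SCAP carries the SREBP precursor from the endoplasmic reticulum to the Golgi, where proteases release the active factor, and when sterol is high, INSIG proteins hold SCAP back. SREBP-2 acts mainly on sterol genes and SREBP-1 mainly on fatty acid genes, and oxysterols such as 25-hydroxycholesterol, which activated macrophages can make, block the transport step.

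SREBPs bind promoters beside the factors NF-Y and Sp1, and RFX proteins bind the X-box. Windows around the transcription start were therefore searched on both strands for motifs of these factors. The motifs were TCACNCCAC, a form of the sterol regulatory element, CCAAT, the NF-Y box, GGGCGG, the Sp1 box, and GTTGCC, an X-box half-site. Windows came from RefSeq (build GRCm38.p6) and held 300 bases, 50 of them after the start, and the shares below are over whole windows. The stretches below show the bases before the start, 5′ to 3′ on the gene's own strand, with motif matches on either strand in capitals. Hmgcs1 is shown as the one member with a match to the sterol element, Nsdhl and Fasn as fallen members with an X-box half-site, Sc5d and Insig1 as fallen members with neither, and Ggps1 as a member that did not fall. Hmgcs1 lies at chr13:119690101-119690350 (+ strand), Nsdhl at chrX:72918271-72918520 (+ strand), Sc5d at chr9:42264301-42264550 (- strand), Insig1 at chr5:28071162-28071362 (+ strand), Fasn at chr11:120824548-120824797 (- strand) and Ggps1 at chr13:14063489-14063738 (- strand). In Insig1 the last 49 bases before the RefSeq start lie inside the GENCODE gene and are not printed.
Hmgcs1: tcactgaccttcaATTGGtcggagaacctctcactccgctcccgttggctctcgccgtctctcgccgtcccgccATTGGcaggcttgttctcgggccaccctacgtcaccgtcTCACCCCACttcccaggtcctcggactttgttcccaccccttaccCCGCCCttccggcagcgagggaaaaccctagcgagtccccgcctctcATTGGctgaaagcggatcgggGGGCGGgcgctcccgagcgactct
Nsdhl: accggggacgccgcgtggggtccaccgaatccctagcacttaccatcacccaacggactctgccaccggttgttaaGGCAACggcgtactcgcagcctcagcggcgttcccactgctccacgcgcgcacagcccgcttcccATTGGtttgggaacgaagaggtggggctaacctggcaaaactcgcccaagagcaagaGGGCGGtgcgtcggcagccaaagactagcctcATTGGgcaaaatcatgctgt
Sc5d: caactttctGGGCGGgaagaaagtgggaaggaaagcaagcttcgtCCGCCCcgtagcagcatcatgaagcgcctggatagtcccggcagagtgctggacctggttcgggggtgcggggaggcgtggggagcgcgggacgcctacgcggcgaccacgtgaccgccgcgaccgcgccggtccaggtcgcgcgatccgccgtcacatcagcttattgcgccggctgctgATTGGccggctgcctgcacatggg
Insig1: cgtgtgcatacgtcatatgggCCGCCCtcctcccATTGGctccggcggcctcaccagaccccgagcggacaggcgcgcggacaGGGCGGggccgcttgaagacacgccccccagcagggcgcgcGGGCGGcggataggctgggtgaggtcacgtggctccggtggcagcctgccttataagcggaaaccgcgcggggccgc
Fasn: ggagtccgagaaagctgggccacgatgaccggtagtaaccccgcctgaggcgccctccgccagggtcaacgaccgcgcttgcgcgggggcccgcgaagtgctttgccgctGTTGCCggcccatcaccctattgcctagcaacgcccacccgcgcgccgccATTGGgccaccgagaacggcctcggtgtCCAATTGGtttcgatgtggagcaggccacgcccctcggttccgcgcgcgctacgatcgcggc
Ggps1: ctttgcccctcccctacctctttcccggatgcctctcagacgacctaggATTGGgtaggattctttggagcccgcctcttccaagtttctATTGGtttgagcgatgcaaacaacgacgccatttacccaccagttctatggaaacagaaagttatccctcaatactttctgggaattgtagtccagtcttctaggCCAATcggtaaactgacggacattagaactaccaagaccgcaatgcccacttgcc

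The Hmgcs1 stretch holds the sterol element at positions -137 to -129 from the start, with NF-Y boxes on both sides of it and Sp1 boxes between it and the start. The Fasn stretch holds a CCAATTGG, in which NF-Y boxes of both strands overlap. Ggps1 holds 3 NF-Y boxes and none of the other motifs. A match describes letters only and does not show that a factor binds.

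Of the 33 members, 26 had promoter windows in the RefSeq table, 34 windows in all. A gene was counted as holding a motif if any of its windows held it. NF-Y boxes were in 22 of the 26 (84.6%), against 42.9% of the 9919 tested genes with a window. Sp1 boxes were in 21 (80.8%, against 68.1%), the X-box half-site in 6 (23.1%, against 14.6%) and the sterol element in 1 (3.85%, against 1.37%). Between the 13 fallen members with a window and the 13 others, NF-Y boxes were as frequent, in 11 and 11, Sp1 boxes were in 12 and 9, the half-site in 4 and 2, and the sterol element in 1 and 0. The half-site was found in Dhcr7, Fasn, Nsdhl and Scap, which fell, and in Insig2 and Srebf1, which did not pass the test.

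**Figure D1:**
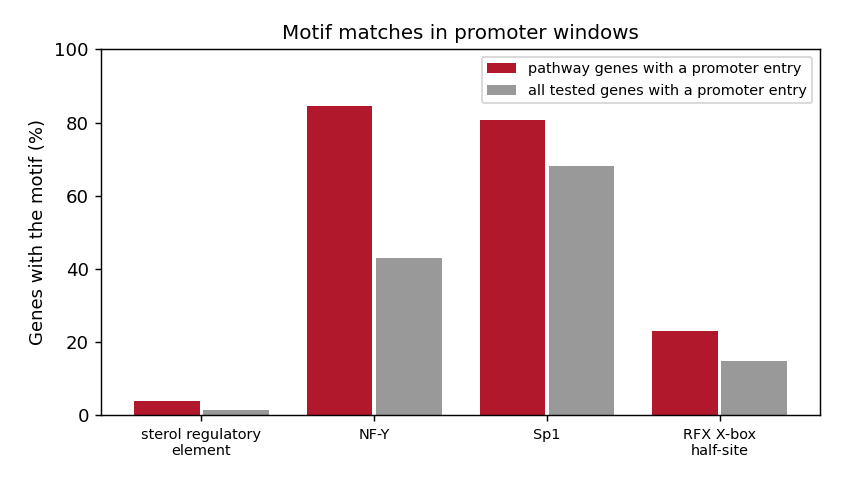
Share of genes (%, vertical axis) whose promoter window holds each motif, for the 26 members with a window (red) and all 9919 tested genes with a window (grey). NF-Y boxes were in 84.6% of the members and 42.9% of all tested genes, and the sterol element was in few genes of either set.

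Libraries held 16461277 to 18795575 counts, and levels are given as counts-per-million (CPM) on scaled library sizes. Some libraries went against their labels or stood apart, which bears on all results, and libraries are named below by their labels. Rfx1 itself was at 57.6, 10.97 and 14.8 CPM in control libraries 1, 2 and 3 and at 40.8, 36.4 and 23.2 CPM in overexpression libraries 1, 2 and 3, so that the library labelled control 1 held the most and no difference passed the test (adjusted p = 0.80). Lyz2, the macrophage lysozyme gene, was at 15672, 38702 and 28352 CPM in the controls and 29281 CPM in overexpression 3, but at 44.7 and 40.8 CPM in overexpression 1 and 2. The other macrophage markers, Adgre1, Csf1r, Cd68, Itgam, Mertk and Fcgr1, were present in every library. With protein-coding genes split by transcript length into 5 bins, the median log2 difference from the control mean was 0.58 over the 1680 shortest and -0.45 over the 1678 longest in overexpression 1, 0.22 and -0.06 in overexpression 2, and -0.11 and 0.20 in overexpression 3. Fallen members and members that did not pass had median transcript lengths of 3697.5 and 3698 bases, median GC contents of 47.7% and 50.6% and median control levels of 42.5 and 49.2 CPM. Lengths ran from 2168 (Nsdhl) to 10050 bases (Fasn) among the fallen and from 1194 (Pmvk) to 9513 bases (Acaca) among the others. Equal medians therefore do not show that single members are free of the length trend.

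Messenger RNA of 14 genes was lower in the overexpression libraries, and these genes were spread over the mevalonate, squalene-to-cholesterol, SREBP and fatty acid steps. At an adjusted p under 0.05 by the quasi-likelihood test of edgeR, Benjamini-Hochberg adjusted over all tested genes, 42.4% of the 33 members fell, none rose and 19 did not pass. Over all tested genes 5.97% were called lower and 6.9% higher. The members were chosen with earlier results of these data known, so the contrast of these shares is a description and no independent test. The median log2 change of the members was -0.58, against -0.01 for all tested genes, and 26 were negative and 7 positive. Every overexpression library lay below every control for 18 members and above for 2, while 13 overlapped; over all tested genes 17.1% lay below and 16.3% above in this way. With library size as the only scaling the median of all genes moved to -0.20, and 16 members and 6.76% of all tested genes fell.

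Summed over the 19 enzymes from acetyl-CoA to cholesterol, the controls held 792, 987 and 914 CPM and the overexpression libraries 601, 556 and 532 CPM, which did not overlap. Group means were 898 ± 98.5 and 563 ± 35.3 CPM (SD, n = 3). The number of fallen members moved with single libraries, and so did the share of all tested genes called lower. It was 11 without control 1 (5.61% of all genes), 6 without control 2 (2.01%), 6 without control 3 (2.78%), 9 without overexpression 1 (3.45%), 3 without overexpression 2 (1.8%) and 15 without overexpression 3 (12.8%). All 14 fallen members kept a negative change in each of these and in every other setting tried, and Cyp51 and Sc5d alone passed in all 6 of them. With overexpression 3 as the only overexpression library, a comparison added after the data had been seen in which its spread is taken from the controls, 2 members passed as lower, Acat2 and Idi1, against 0.593% of all genes, and the median change of the 14 was -1.05 (-1.18 with all libraries).

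**Figure D2:**
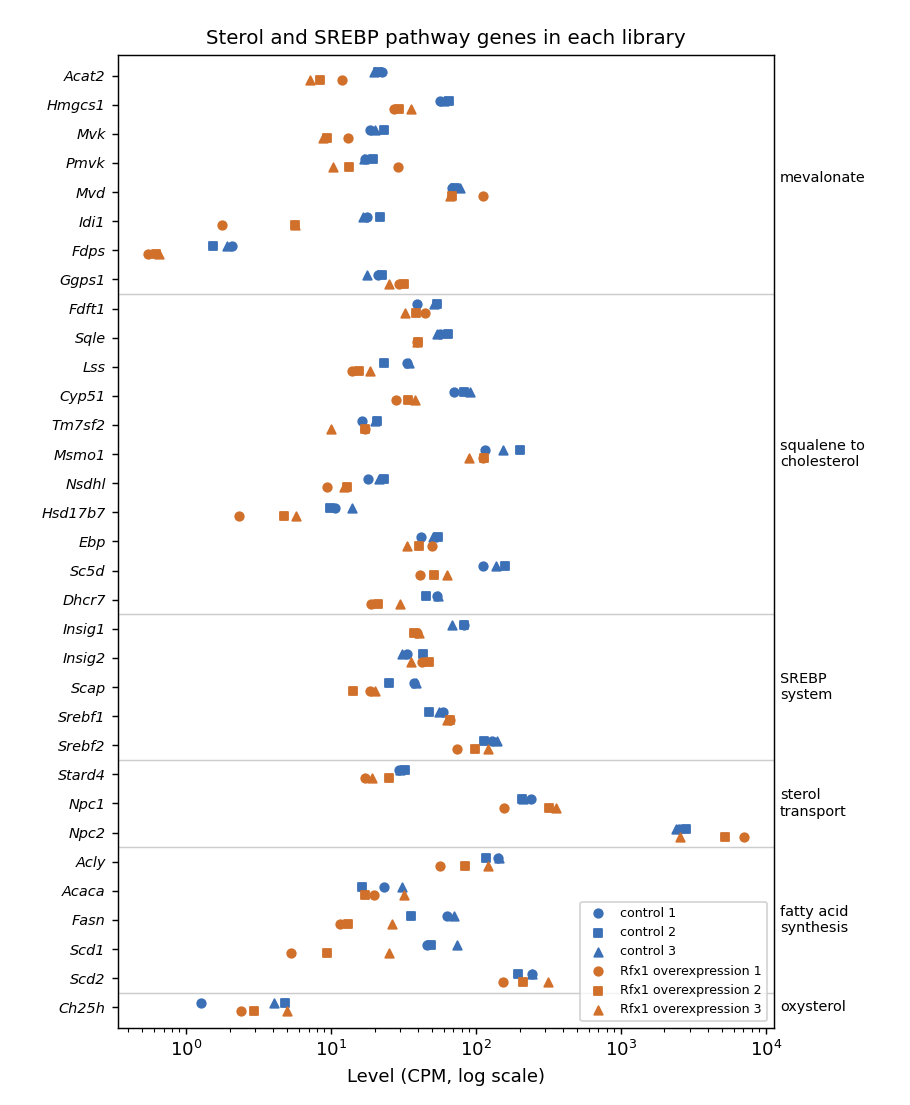
Level of each of the 33 genes in each library (CPM, log scale), ordered along the pathway, with controls in blue and overexpression libraries in orange and marker shape giving the library number. For 18 genes all orange points lie left of all blue points, among them Cyp51 at 28.3 to 37.9 CPM against 71.0 to 91.6 CPM.

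Of the 8 genes from acetyl-CoA to farnesyl and geranylgeranyl diphosphate, 4 fell and the other 4 did not pass. Acat2, the cytosolic acetoacetyl-CoA thiolase of the entry step, was at 22.6, 21.2 and 19.9 CPM in the controls against 11.9, 8.38 and 7.14 CPM under overexpression (log2 change -1.22 ± 0.25 SE, adjusted p = 0.013). Hmgcs1, the cytosolic HMG-CoA synthase whose promoter is printed above, was at 56.6, 65.7 and 60.0 CPM and then 27.4, 29.3 and 35.7 CPM (-0.98 ± 0.20, adjusted p = 0.012). In both genes the highest overexpression library lay well below the lowest control.

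Mvk, mevalonate kinase, was at 18.7, 23.3 and 20.2 CPM in the controls against 13.1, 9.40 and 8.85 CPM under overexpression (-0.99 ± 0.24, adjusted p = 0.026). Idi1, the isopentenyl diphosphate isomerase on chromosome 13 (ENSMUSG00000058258, mm10 positions 8885501 to 8892451), fell from 17.9, 21.9 and 16.7 CPM to 1.78, 5.67 and 5.67 CPM (-2.10 ± 0.40, adjusted p = 0.0092). Overexpression 1 was the lowest library for Idi1 and the highest of the 3 for Acat2 and Mvk, and no library overlapped the other group in any of the 3 genes. Without control 2, none of Acat2, Hmgcs1, Mvk and Idi1 passed (adjusted p = 0.054 to 0.12), without control 3 Hmgcs1 and Mvk did not (0.051 and 0.084), and without overexpression 2 Acat2, Hmgcs1 and Mvk did not (0.079 to 0.13). Acat2 has near copies in Acat3 (97.7% over 1477 bases, 62 counts over the 6 libraries against 1684 for Acat2) and, over 445 bases at 98.65%, in Tcp1 (21138 counts), and Idi1 matches Gm13502 at 100% over 684 bases (30 counts against 1319). Acat3 was at 0.283, 0.373 and 0.273 CPM in the controls against 0.753, 0.680 and 1.24 CPM under overexpression, all above the controls (adjusted p = 0.13).

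Fdps, the farnesyl diphosphate synthase, had few counts: 2.08, 1.54 and 1.91 CPM in the controls against 0.55, 0.62 and 0.65 CPM under overexpression (-1.59 ± 0.48, adjusted p = 0.056). Its groups did not overlap, and it passed with upper-quartile factors (adjusted p = 0.048), library size alone (0.043), limma-voom (0.0095) and offsets for length and GC content (0.040). Near-identical copies make its level uncertain: Gm3571 matches it at 98.87% over 1062 bases and held 625 counts over the 6 libraries against 138 for Fdps. Gm3571 was at 6.75, 7.03 and 6.38 CPM in the controls against 9.72, 2.95 and 2.30 CPM under overexpression, which overlapped.

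The next kinase and decarboxylase of the pathway showed a different order of libraries. Pmvk, phosphomevalonate kinase, was at 17.05, 19.6 and 17.01 CPM in the controls against 28.8, 13.4 and 10.3 CPM under overexpression (-0.04 ± 0.36, adjusted p = 0.96). Mvd, the mevalonate diphosphate decarboxylase, was at 68.2, 71.9 and 77.1 CPM and then 111, 68.2 and 66.0 CPM (0.18 ± 0.24, adjusted p = 0.68). For both, overexpression 1 was the highest of all libraries and overexpression 3 the lowest, and the sign of both changes turned with some settings. Both transcripts are short, at 1194 and 1833 bases. The bin of shortest genes had medians of 0.58 in overexpression 1 and -0.11 in overexpression 3. With offsets for length and GC content the changes were -0.38 for Pmvk and 0.04 for Mvd. The part of length in this order was not tested.

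Ggps1, the geranylgeranyl diphosphate synthase that feeds protein prenylation rather than sterols, lay above the controls in every overexpression library. It was at 20.97, 22.4 and 17.7 CPM in the controls against 29.4, 31.7 and 24.97 CPM under overexpression (0.49 ± 0.21, adjusted p = 0.15, 0.0094 with limma-voom). It shares 257 exonic bases with Arid4b on the opposite strand, and whether counting used strand is not given in the sources used here.

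**Figure D3:**
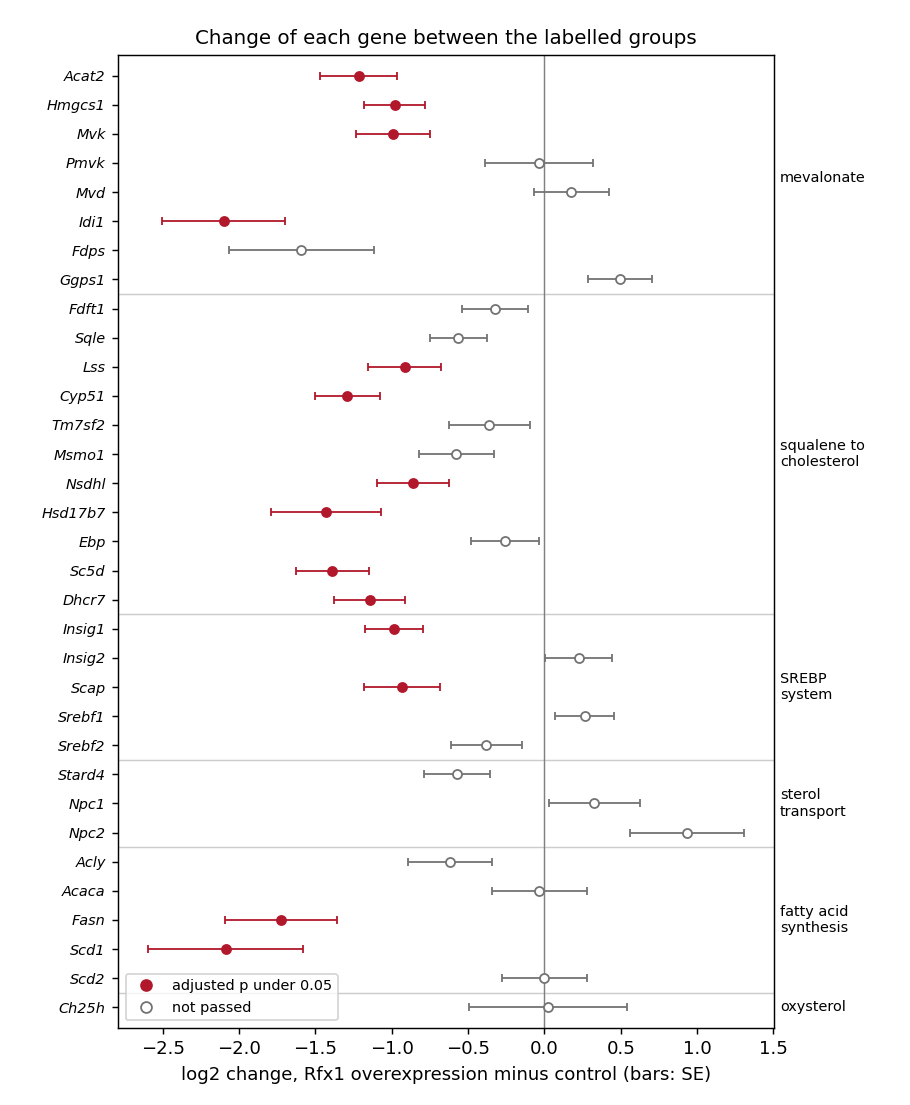
log2 change of each of the 33 genes, overexpression minus control (horizontal axis), with bars of 1 SE and filled points for an adjusted p under 0.05 by edgeR. All 14 filled points lie left of 0, and the 11 genes from squalene to cholesterol are all negative.

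Of the 11 genes from squalene to cholesterol 6 fell, and the change of all 11 was negative (median -0.86). Cyp51, lanosterol 14-alpha-demethylase (ENSMUSG00000001467, chromosome 5, mm10 positions 4081145 to 4104746), was at 71.0, 82.7 and 91.6 CPM in the controls against 28.3, 34.0 and 37.9 CPM under overexpression (-1.29 ± 0.21, adjusted p = 0.0046). Sc5d, the sterol C5-desaturase (ENSMUSG00000032018, chromosome 9, 42251595 to 42264256), was at 112, 160 and 137 CPM and then 41.1, 51.6 and 63.2 CPM (-1.39 ± 0.24, adjusted p = 0.0057). Both kept a wide gap between the groups and passed whichever library was left out, with adjusted p of 0.0018 to 0.035 for Cyp51 and 0.0014 to 0.042 for Sc5d.

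Dhcr7, the 7-dehydrocholesterol reductase of the last step, was at 53.8, 45.5 and 54.4 CPM in the controls against 18.7, 20.96 and 29.8 CPM under overexpression (-1.14 ± 0.23, adjusted p = 0.012). Lss, lanosterol synthase, which closes the ring, was at 33.2, 23.1 and 34.8 CPM and then 14.03, 15.7 and 18.5 CPM (-0.92 ± 0.24, adjusted p = 0.032). In both, overexpression 3 lay nearest the controls without reaching them.

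The C4-demethylation enzymes differed in size of change. Nsdhl, the decarboxylating sterol dehydrogenase, was at 18.1, 23.2 and 21.5 CPM in the controls against 9.37, 12.97 and 12.2 CPM under overexpression (-0.86 ± 0.23, adjusted p = 0.039). Hsd17b7, the 3-ketosterol reductase of that step, was at 10.7, 9.85 and 14.1 CPM and then 2.33, 4.76 and 5.72 CPM (-1.43 ± 0.36, adjusted p = 0.029). Msmo1, the C4-methyl oxidase, was at 115, 202 and 154 CPM and then 112, 113 and 89.9 CPM (-0.58 ± 0.25, adjusted p = 0.16, 0.049 with limma-voom), where control 1 lay just above overexpression 2.

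Calls in this segment were lost with single libraries. Lss and Nsdhl did not pass without control 1 (adjusted p = 0.086 and 0.051) or overexpression 1 (0.080 and 0.085). Nsdhl and Hsd17b7 did not pass without control 2 (0.081 to 0.16), and Lss, Nsdhl, Hsd17b7 and Dhcr7 did not without control 3 (0.051 to 0.14) or overexpression 2 (0.078 to 0.14). Matches of Dhcr7 and Msmo1 to other genes were short, at most 227 and 203 bases.

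Sqle, squalene epoxidase, a rate-limiting step, had its overexpression libraries closest together of all members relative to their mean, at 39.1, 39.7 and 39.0 CPM against 56.7, 63.9 and 53.7 CPM in the controls. Its groups did not overlap, and its change was -0.57 ± 0.19 (adjusted p = 0.077, 0.042 with library size alone and 0.015 with limma-voom). The other 3 genes of the segment overlapped between groups. Fdft1, squalene synthase, was at 39.4, 54.2 and 51.4 CPM in the controls against 44.5, 38.6 and 32.6 CPM under overexpression (-0.32 ± 0.22, adjusted p = 0.37). It shares 774 exonic bases with the cathepsin B gene Ctsb on the opposite strand, which held 2099024 counts against 4679 for Fdft1.

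Ebp, the sterol isomerase, was at 42.1, 55.0 and 50.6 CPM in the controls against 49.7, 40.4 and 33.5 CPM under overexpression (-0.26 ± 0.22, adjusted p = 0.49). Tm7sf2, a sterol C14-reductase, was at 16.5, 20.7 and 20.01 CPM and then 17.2, 17.3 and 10.0 CPM (-0.36 ± 0.26, adjusted p = 0.41). For Fdft1, Ebp and Tm7sf2, overexpression 3 was the lowest of all 6 libraries, whereas among the 14 fallen members it was the highest overexpression library in 11 and the lowest in 2.

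Among the 5 genes of the SREBP system, Insig1 and Scap fell, and neither SREBP gene passed. Insig1, the sterol-induced retention protein that is itself an SREBP target, was at 82.4, 82.5 and 68.4 CPM in the controls against 39.4, 37.7 and 40.7 CPM under overexpression (-0.99 ± 0.19, adjusted p = 0.0100). Scap, the escort protein, was at 37.5, 25.1 and 38.4 CPM and then 18.5, 14.3 and 20.2 CPM (-0.93 ± 0.25, adjusted p = 0.035). Neither gene overlapped between the groups, and the overexpression libraries of Insig1 lay close together. Insig1 did not pass without control 2 (adjusted p = 0.051) or overexpression 2 (0.068), and Scap did not without control 1 (0.093), control 3 (0.14), overexpression 1 (0.066) or overexpression 2 (0.16).

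Insig2, the related retention protein, was at 33.5, 43.1 and 31.0 CPM in the controls against 42.3, 47.8 and 35.6 CPM under overexpression (0.22 ± 0.22, adjusted p = 0.55). Srebf1, which encodes SREBP-1, was at 59.7, 47.3 and 55.6 CPM and then 66.4, 65.8 and 63.3 CPM, above the controls in all 3 (0.26 ± 0.19, adjusted p = 0.41). Srebf2, which encodes SREBP-2, was at 128, 114 and 141 CPM and then 74.0, 98.7 and 121 CPM (-0.38 ± 0.23, adjusted p = 0.32). Overexpression 1 was lowest and overexpression 3 lay among the controls for Srebf2, and gene counts give no isoform of Srebf1 and nothing on cleavage of either protein.

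Of the 3 sterol transport genes none passed. Stard4, which carries cholesterol through the cytosol, was at 29.5, 32.4 and 29.7 CPM in the controls against 17.3, 24.98 and 19.2 CPM under overexpression, with no overlap (-0.57 ± 0.21, adjusted p = 0.11). Npc1, the membrane transporter that passes cholesterol out of the lysosome, was at 241, 209 and 211 CPM and then 157, 318 and 355 CPM (0.33 ± 0.30, adjusted p = 0.52). Overexpression 1 lay below the controls and the other overexpression libraries above them.

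Npc2, the soluble lysosomal partner of Npc1, was the most abundant member per kilobase of exon, at 475 CPM per kilobase in the controls, against 41.7 for Scd2, the next, and 0.438 for Fdps, the lowest. It was at 2536, 2798 and 2414 CPM in the controls against 7044, 5208 and 2554 CPM under overexpression (0.93 ± 0.37, adjusted p = 0.13). Overexpression 1 and 2 were high and overexpression 3 lay within the controls, the same split of libraries as for Lyz2. Without overexpression 3 Npc2 rose (1.24, adjusted p = 0.010), as it did by DESeq2 (adjusted p = 0.037) and limma-voom (0.0077), and with overexpression 3 alone its change was -0.01.

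**Figure D4:**
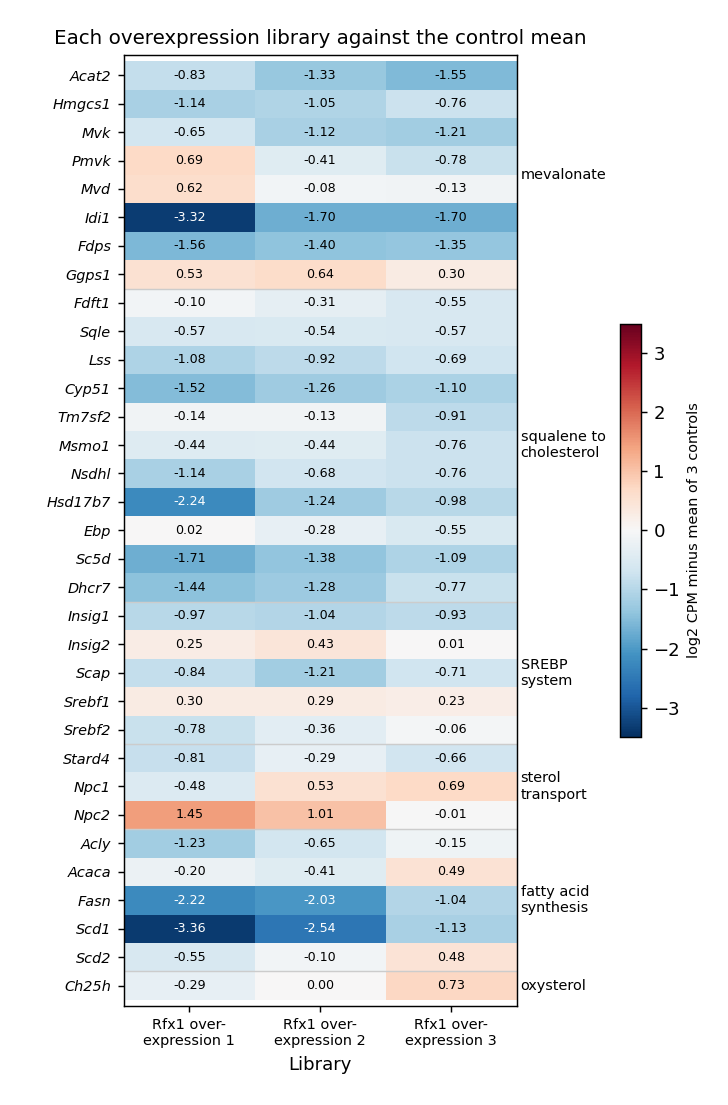
Difference of each overexpression library from the control mean (log2 CPM, numbers in the cells) for the 33 genes, blue for lower and red for higher. Fasn and Scd1 were lower by more in overexpression 1 and 2 than in 3, while Insig1, Sqle and Fdps differed little between the 3 libraries.

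The fatty acid genes split, with Fasn and Scd1 lower and the others not passing. Fasn, fatty acid synthase, was at 62.9, 35.6 and 70.2 CPM in the controls against 11.5, 13.1 and 26.3 CPM under overexpression (-1.73 ± 0.37, adjusted p = 0.014). Scd1, the stearoyl-CoA desaturase that makes oleate, was at 45.8, 49.1 and 73.9 CPM and then 5.27, 9.35 and 25.02 CPM (-2.09 ± 0.51, adjusted p = 0.028). Both were lowest in overexpression 1 and highest of the 3 in overexpression 3, without overlap. Fasn did not pass without overexpression 1 (adjusted p = 0.051) or 2 (0.085), and Scd1 did not without control 2 (0.071), control 3 (0.069), overexpression 1 (0.053) or overexpression 2 (0.12).

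Scd2, the paralog of Scd1 that matches it at 95.51% over 623 bases, had the same mean in both groups, at 244, 195 and 245 CPM in the controls against 155, 212 and 317 CPM under overexpression (-0.00 ± 0.28, adjusted p = 0.999). Acly, which makes cytosolic acetyl-CoA from citrate, was at 141, 116 and 145 CPM and then 56.9, 84.8 and 120 CPM (-0.62 ± 0.28, adjusted p = 0.18), and it passed as lower without overexpression 3 (-0.92, adjusted p = 0.020). Acaca, acetyl-CoA carboxylase, was at 23.0, 16.5 and 31.1 CPM and then 19.8, 17.1 and 32.1 CPM (-0.03 ± 0.31, adjusted p = 0.96). All 5 fatty acid genes had their highest overexpression value in overexpression 3, and their sums were 517, 413 and 565 CPM in the controls against 248, 336 and 520 CPM under overexpression, which overlapped. Their transcripts are long, from 4426 bases (Acly) to 10050 bases (Fasn). The bins of genes with median lengths of 4556 and 6877 bases had medians of 0.05 and 0.20 in overexpression 3. In overexpression 1 these were -0.20 and -0.45. The part of length in this order was not tested.

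Ch25h, which makes 25-hydroxycholesterol, was low and variable, at 1.28, 4.84 and 4.04 CPM in the controls against 2.39, 2.95 and 4.96 CPM under overexpression (0.03 ± 0.52, adjusted p = 0.98). Its groups overlapped, and no difference was detected.

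**Figure D5:**
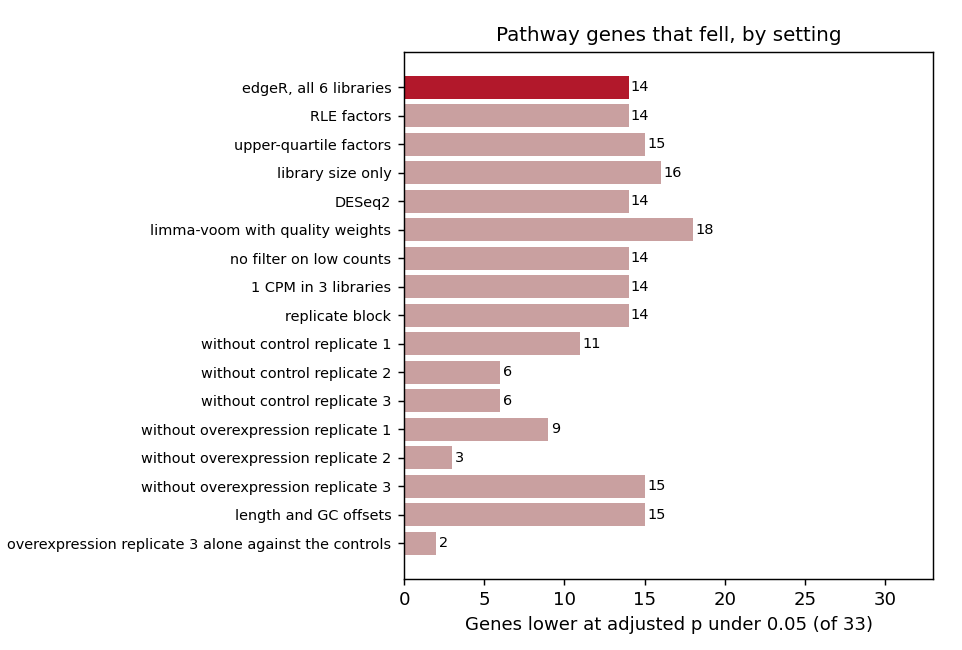
Number of the 33 genes that fell (horizontal axis, adjusted p under 0.05) with all libraries in edgeR (dark red) and under each of 16 other settings (pale). Counts ran from 2 with overexpression 3 alone, where 0.593% of all tested genes were called lower, to 18 with limma-voom, where 19.8% were.

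Around the pathway, 72 related genes were listed, 71 were in the table and 68 were tested. Of these 8 fell and 1 rose, and the median log2 change was -0.22. The share that fell was 11.8%, against 5.97% of all tested genes, in a list also chosen with earlier results known. None of 13 partners of SREBP processing and degradation passed, among them the site-1 and site-2 protease genes Mbtps1 (-0.58, adjusted p = 0.16) and Mbtps2 (-0.35, adjusted p = 0.38). None of 15 genes of the dolichol, ubiquinone and prenylation branches passed, with Nus1, a subunit of the dolichol-making prenyltransferase, nearest (158, 195 and 165 CPM in the controls against 318, 298 and 244 CPM under overexpression, 0.73 ± 0.21, adjusted p = 0.053). None of the 4 electron donors that serve the sterol oxidases passed.

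Of 16 other tested SREBP targets of lipid synthesis 4 fell. Fads2, the delta-6 desaturase, was at 7.18, 11.3 and 19.96 CPM in the controls against 1.16, 1.30 and 3.13 CPM under overexpression (-2.77 ± 0.50, adjusted p = 0.0070). Elovl1, an elongase of very long fatty acids, was at 159, 194 and 175 CPM and then 86.8, 78.3 and 93.0 CPM (-1.03 ± 0.20, adjusted p = 0.0088). Elovl6, the elongase of palmitate (-1.97, adjusted p = 0.022), and Lpin1, the phosphatidate phosphatase lipin 1 (-1.12, adjusted p = 0.027), also fell. Fads2 passed whichever library was left out. Elovl1 did not pass without overexpression 2 (adjusted p = 0.066), Elovl6 did not without control 2, control 3, overexpression 1 or overexpression 2 (0.054, 0.11, 0.075 and 0.11), and Lpin1 passed only without overexpression 3 and otherwise had adjusted p of 0.051 to 0.14.

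Lipa, the lysosomal acid lipase that frees cholesterol from its esters, was the 1 of 7 tested sterol movement and storage genes that fell. It was at 1095, 1175 and 1138 CPM in the controls against 217, 269 and 424 CPM under overexpression (-1.91 ± 0.30, adjusted p = 0.0037). The groups were far apart, and Lipa passed whichever library was left out.

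Of 9 genes of the liver X receptor system, which acts when sterols are plentiful, 2 fell and 1 rose. The 9 hold the receptors, their partners and target genes. Nr1h3, which encodes LXR alpha, was at 35.0, 34.7 and 31.7 CPM in the controls against 13.5, 11.6 and 11.2 CPM under overexpression (-1.48 ± 0.20, adjusted p = 0.0021), and it passed whichever library was left out. Abcg1, a sterol exporter, was at 183, 120 and 146 CPM and then 73.8, 84.0 and 100 CPM (-0.80 ± 0.23, adjusted p = 0.0496); it passed only without overexpression 3 among the comparisons that leave out a library, with adjusted p of 0.071 to 0.18 in the others and 0.051 with library size alone. Arl4c, a small GTPase gene and LXR target, went the other way, from 81.7, 51.5 and 43.2 CPM to 220, 191 and 122 CPM (1.59 ± 0.31, adjusted p = 0.0096, 0.059 without control 2).

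Of 4 tested oxysterol enzyme and receptor genes, Cyp7b1, the oxysterol 7-alpha-hydroxylase, fell, from 7.04, 16.1 and 17.6 CPM to 1.44, 2.04 and 4.90 CPM (-2.27 ± 0.51, adjusted p = 0.017). It did not pass without control 2 (adjusted p = 0.083), control 3 (0.057), overexpression 1 (0.056) or overexpression 2 (0.096).

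Some markers of other cell types moved with the groups too. Of 9 mesothelial markers 7 were tested and 5 fell, with sums of 28.2, 130 and 175 CPM in the controls against 2.19, 2.83 and 8.32 CPM under overexpression, and Upk1b at 0 in all overexpression libraries. Of 6 fibroblast markers Pdgfra and Lum fell, and the 4 others did not pass, with log2 changes from -1.60 (Col1a2) to -0.06 (Dcn). Sums of the 6 were 654, 1293 and 1694 CPM and then 282, 432 and 803 CPM, which overlapped. Of 4 neutrophil markers S100a8 and Camp rose, while Ly6g was at 0 in all libraries. Sums were 7.84, 11.1 and 15.4 CPM and then 338, 137 and 46.7 CPM. Nearly all of this was S100a8 alone, at 335, 135 and 46.0 CPM under overexpression. S100a9 held only 28 counts over the 6 libraries and was not tested, and Camp held 65. Of 5 adipocyte markers 3 were at 0 in all libraries and the sums of the 5 were at most 0.889 CPM. No B cell, T cell or endothelial marker passed, and of 7 macrophage markers Adgre1 and Itgam rose. The part of these cells in the lower sterol and fatty acid genes was not tested, and in bulk RNA fewer cells of a type and less RNA per cell cannot be told apart.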

How the data were processed

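The authors deposited 1 table of raw counts per gene, 54532 Ensembl identifiers in 6 libraries made with a stranded mRNA kit, per the labels' protocols. Tools named in the submitters' processing notes are featureCounts 1.5.0-p3 and DESeq2 1.20.0, with the build mm10. The sources used here name no aligner, annotation or strand setting. Symbols and positions came from GENCODE M21 (54495 identifiers matched). The test was edgeR 4.0.16 under R 4.3.3 (TMM scaling, edgeR's filter by group, robust quasi-likelihood fit, group as the only term) with Benjamini-Hochberg adjustment over 13454 genes at 0.05, first tested on simulated data. The SE is the log2 change divided by the square root of F; kilobases are of merged exons. Libraries of the same label differed beyond sampling noise in every pair (chi-square per degree of freedom 40.7 to 201). Alternatives were RLE, upper-quartile and no composition factors, DESeq2 1.42.0, limma-voom (limma 3.58.1) with quality weights, other count filters, the replicate number as a block, and each library left out; offsets for length and GC content and overexpression 3 alone were added after seeing the data. Members and lists were chosen with earlier results of these data known. Every member is named, with up to 2 risen and 2 fallen genes of each related list by smallest p. Elovl6, Lpin1, Nus1, Mbtps1 and Mbtps2 were named after their values were seen. Cell type markers were planned to be given by their sum and their 2 most abundant genes. Others, among them Upk1b, Pdgfra, Lum and Dcn, were named after their values were seen.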

Additional observations from a re-analysis of the deposited data

How the results depend on the processing

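The 14 fallen members were counted as 14 with RLE factors (5.95% of all tested genes called lower), DESeq2 (7.74%), no count filter (6.15%), a filter of 1 CPM in 3 libraries (6.01%) and the replicate block (7.02%), 15 with upper-quartile factors (6.67%) or length and GC offsets (9.2%), 16 with library size alone (6.76%) and 18 with limma-voom (19.8%). They numbered 3 to 15 when a library was left out (1.8% to 12.8%) and 2 with overexpression 3 alone (0.593%). No member rose, except 1 by DESeq2 (8.22% of all genes called higher) and 2 by limma-voom (18.2%), and 0 to 1 with a library left out (3.26% to 11.8%). The 8 fallen and 1 risen of 68 related genes moved with these shares: the fallen became 22 by limma-voom, 3 to 14 with a library left out and 1 with overexpression 3 alone. The risen became 2 by DESeq2, 6 by limma-voom, 3 with offsets (9.76% of all genes), 0 to 4 with a library left out and 0 with overexpression 3 alone (1.78%). Signs turned only for 7 members that had not passed. With libraries left out, the log2 change ranged from -0.58 to 0.23 for Pmvk, -0.092 to 0.31 for Mvd, -0.35 to 0.21 for Acaca, -0.32 to 0.23 for Scd2 and -0.37 to 0.38 for Ch25h. With overexpression 3 alone it was -0.13 for Mvd, -0.0024 for Insig2, -0.0088 for Npc2, 0.46 for Acaca and 0.48 for Scd2. Mvd was at -0.043 with library size and -0.060 with limma-voom, Ch25h at -0.038 with upper-quartile factors, -0.11 with library size, -0.13 with limma-voom and -0.010 with offsets, Scd2 at 0.0048 with RLE factors and 0.065 with offsets, and Acaca at 0.12 with offsets. The cause was not tested. Deviations of same-numbered libraries of the groups had correlations of 0.094, 0.0053 and 0.327, and those of unlike-numbered libraries -0.232 to 0.190. The value for number 3 was the highest of all, and whether the numbers mark pairs was not tested. The main fit did not take them as pairs. The fit with the replicate block also called 14 members and 8 related genes lower. In that fit Abcg1 did not pass (adjusted p = 0.071). Depth limits Fdps and Ch25h most, at under 5 CPM in every library.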
